A study of Mus musculus with 11 samples.

Results

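SPARC and 9 other genes for secreted proteins were followed at P10 in the mouse retina, cell class by cell class. Most of these proteins are known to restrain vessel growth. The 10 genes were Sparc, Sparcl1, Thbs1, Thbs2, Serpinf1, Timp2, Timp3, Adamts1, Col18a1 and Spock1, chosen by name, and each has a place among the 25311 genes of the count matrix. Single cells came from the retinas of 11 C57BL/6J mice, dissociated with papain and captured in droplets by inDrop, which tags each RNA molecule with a unique molecular identifier (UMI). Control mice (n = 3) received PBS. Phase I ROP mice (n = 3) received streptozotocin (STZ), a toxin that destroys insulin-producing cells and gives neonatal hyperglycemia. The paper's wording can be read to make them littermates of the controls. It also states that litters given STZ were kept smaller, so litter and litter size may go with STZ. Mice of the ω-3 diet group (n = 2) and the ω-6 diet group (n = 3) also received STZ and were nursed by dams fed long-chain polyunsaturated fatty acids (LCPUFA) of either kind. The paper describes these 5 pups as littermates. Their labels carried the note JAX, which those of the other 6 mice did not. Each diet reached pups through the dam that nursed them, so diet and nursing dam cannot be told apart between ω-3 and ω-6. The retinopathy of all 8 STZ mice is labelled as hyperglycemia-associated. STZ acts on the pancreas of the whole animal and the diets reached the pups through the dam, so neither is specific to a retinal cell. Retinas were taken without the retinal pigment epithelium.

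The matrix between endothelial cells and their neighbours holds proteins that do not build fibres but set how cells attach, divide and sense growth factors. SPARC binds collagen and can bind VEGF. SPARCL1 and SPOCK1 are its relatives. Thrombospondins 1 and 2 act on endothelial cells through CD36 and CD47, and ADAMTS1 is a metalloprotease with thrombospondin repeats that can bind VEGF. The tissue inhibitors of metalloproteinases, TIMP2 and TIMP3, block the proteases that clear matrix ahead of a sprout, and TIMP3 also blocks VEGF binding to VEGFR2. Collagen XVIII releases endostatin, and Serpinf1 encodes PEDF, a product of the pigment epithelium. Müller glia span the whole depth of the retina and lie against its vessels while the deep vascular layer forms.

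Cells were grouped by clustering and each class was named from a fixed marker list, so the names below stand for rod-like, Müller glia-like and other marker-defined classes. Of 20067 cells, 20033 passed the filter of more than 300 genes. The Müller glia class had 1425 cells from 1 cluster, between 44 and 257 cells and between 163175 and 766106 UMIs per mouse, with all 11 Müller markers detected. Total UMIs ran from 2565568 to 6517776 per mouse. The libraries shared 1157 of 18872 cell barcodes, 189 of them within 1 group alone. The 3 control libraries stood apart from the 8 STZ libraries. Of the 20033 cells, 4042 in 8 clusters took no class, between 211 and 733 per mouse, with 16.1% of all UMIs. The largest of these clusters, of 1356 cells, came closest to amacrine cells, and others came closest to rods. Class shares are of all cells or UMIs, the unnamed included, so they can be partial. Cells named as rods made up 10.5 to 20.3% of the cells in controls, against 38.9 to 50.4% in Phase I ROP and 30.9 to 48.9% on the diets. A list of 29 immediate early and dissociation genes, which respond within minutes to stress and to tissue handling, summed to between 364 and 634 counts per 1000000 UMIs (CPM) over all cells in controls and to between 3155 and 5350 CPM in the STZ mice. Because this split falls between all controls and all treated mice, STZ and preparation of the tissue cannot be told apart in any comparison with control, and no library can be left out to separate them.

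The 10 genes had few classes in common. Sparc had its highest levels in endothelial cells, glia and pigment epithelium. Pooled over the 11 mice, Sparc reached 3685 CPM in Müller glia, 5602 CPM in endothelial cells, 3206 CPM in microglia, 3095 CPM in retinal pigment epithelium and 2823 CPM in astrocytes. In the neurons its level was far lower, at 110 CPM in retinal ganglion cells, 47.9 CPM in bipolar cells, 35.9 CPM in amacrine cells, 20.8 CPM in rods, 6.32 CPM in cones and 5.36 CPM in horizontal cells. A Sparc UMI was seen in 84.1% of Müller glia. Müller glia gave 68.2% of all Sparc UMIs while they gave 8.61% of all UMIs, and endothelial cells gave another 17.9%. These are descriptions without a test, because the clustering used 9 of the 10 genes (Thbs2 was not among the variable genes). Clusters computed without the 10 genes put 1404 of the same cells together, 98.5% of the Müller glia class. They put 279 cells in place of 59 in the microglia class, where Sparc was then at 1170 CPM and Timp2 at 290.3 CPM.

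**Figure D1:**
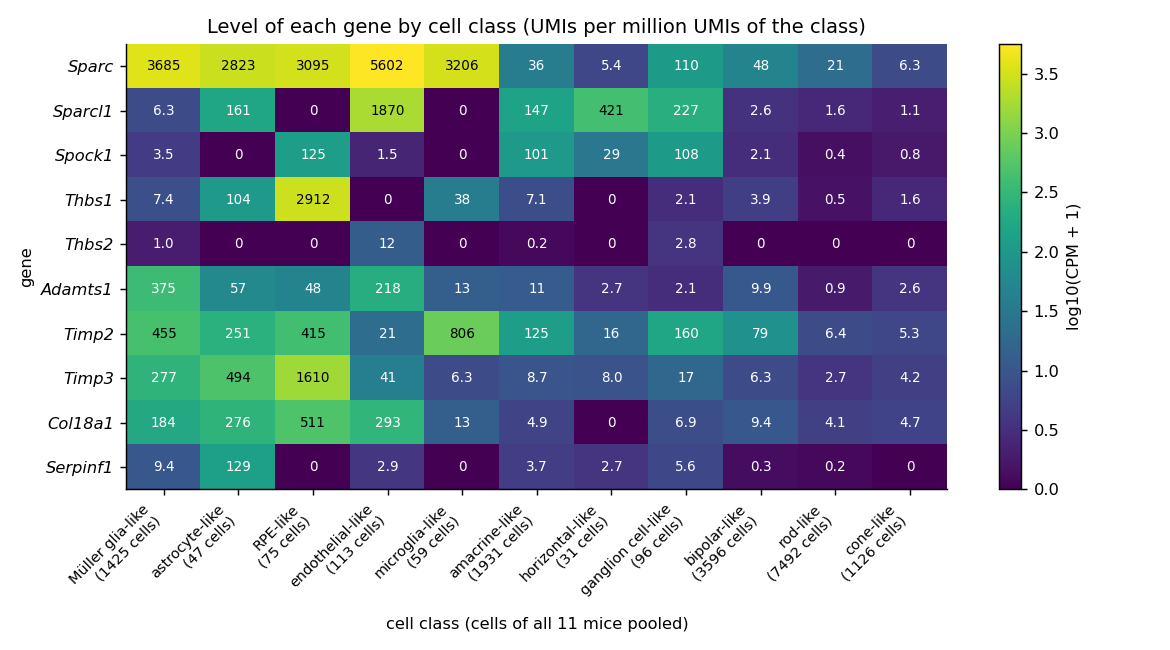
Pooled level of each of the 10 genes in each marker-defined class, as CPM of the UMIs of the class over 11 mice, coloured on a log10(CPM + 1) scale. Sparc is high in Müller glia (3685 CPM), endothelial cells, microglia, astrocytes and retinal pigment epithelium, whereas Thbs1 peaks in the retinal pigment epithelium (2912 CPM). Spock1 is at 125 CPM there, from 13 UMIs (95% interval 66.7 to 214), and at 108 and 101 CPM in ganglion and amacrine cells.

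The 2 relatives of Sparc lay elsewhere. Sparcl1 was at 1870 CPM in endothelial cells, 421 CPM in horizontal cells, 227 CPM in ganglion cells and 147 CPM in amacrine cells, and at 6.34 CPM in Müller glia. Spock1, a testican proteoglycan, was at 101 CPM in amacrine cells, which gave 67.8% of its UMIs, and at 3.55 CPM in Müller glia. The unnamed clusters gave another 16.4% of its UMIs. Within the amacrine class, Spock1 was at 195 CPM in the cluster led by Chat and Slc5a7, genes of cholinergic starburst cells, and at 2.45 CPM in another amacrine cluster. Among the 3 relatives, Sparc was thus highest in endothelial cells and Müller glia. Sparcl1 was highest in endothelial cells, followed by horizontal cells, ganglion cells, astrocytes (161 CPM) and amacrine cells. Spock1 was at 108 CPM in ganglion cells and at 125 CPM in pigment epithelium. The latter rests on 13 UMIs in 5 mice (95% interval 66.7 to 214), which covers the ganglion and amacrine levels. In rods, cones and bipolar cells neither Sparcl1 nor Spock1 exceeded 2.57 CPM.

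The thrombospondins were scarce outside the pigment epithelium. Thbs1 reached 2912 CPM in retinal pigment epithelium, and these 75 cells, which gave 0.226% of all UMIs, gave 56.4% of its UMIs. Thbs1 was among the 10 leading genes of that cluster, so its level there was used to define it. It was at 104 CPM in astrocytes and 7.35 CPM in Müller glia. Endothelial cells had 0 Thbs1 UMIs of 682826, which allows up to 4.39 CPM. Thbs2 had 18 UMIs in the whole series. Adamts1 was at 375 CPM in Müller glia and 218 CPM in endothelial cells, and Müller glia gave 73.8% of its UMIs. Timp3 was at 1610 CPM in retinal pigment epithelium, 494 CPM in astrocytes and 277 CPM in Müller glia. Timp2 was the most widely spread, at 806 CPM in microglia, 455 CPM in Müller glia and 415 CPM in retinal pigment epithelium. It was at 251 CPM in astrocytes, 160 CPM in ganglion cells and 125 CPM in amacrine cells. Col18a1 was at 511 CPM in retinal pigment epithelium, 293 CPM in endothelial cells, 276 CPM in astrocytes and 184 CPM in Müller glia. Serpinf1 was sparse, at 129 CPM in astrocytes and 9.38 CPM in Müller glia. The pigment epithelium class had 0 Serpinf1 UMIs of 103707, which allows up to 28.9 CPM. A gene released from broken Müller glia would keep a fixed ratio to the Müller markers in a class that made neither. The ratios were therefore set side by side. Per 1000 UMIs of Müller markers, Sparc had 184 UMIs in Müller glia, 158 in bipolar cells, 144 in rods, 52.3 in amacrine cells and 26.4 in cones. Timp2 had 22.7 UMIs in Müller glia, 182 in amacrine cells and 259 in bipolar cells. Sparcl1 had 0.316 UMIs in Müller glia and 214 in amacrine cells. The Sparc ratio of these neurons was thus below that in Müller glia, and the part of Müller RNA in their Sparc level was not tested. Microglia stood at 174 per 1000, with 2933 Müller marker UMIs of 158785 UMIs in the class and a Sparc UMI in 79.7% of cells. The source of Sparc there was not tested either. Sparc was at 207 per 1000 in retinal pigment epithelium, 284 in astrocytes and 8352 in endothelial cells. The Timp2 and Sparcl1 ratios in amacrine cells lay above those in Müller glia. The ratio was not computed in ganglion and horizontal cells.

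Of the genes in the matrix, 16169 were numerous enough for a likeness to Sparc over the 55 sums of 5 classes in 11 mice. The 5 with the highest Pearson correlation of log2 CPM were Crip2 (r = 0.968), Metrn (r = 0.968), S100a16 (r = 0.966), Aldh1a1 (r = 0.965) and Pmp22 (r = 0.965). The 55 points share mice, depth and the split between Müller glia and neurons, so these values describe the class pattern and carry no test.

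Phase I ROP vs. control was tested first in Müller glia, on UMIs summed per mouse. Adamts1 and Timp3 rose, and Sparc did not pass the test. In the whole test 4855 genes entered and 10.8% were called at a Benjamini-Hochberg adjusted p under 0.05 (5.81% higher and 5.03% lower in Phase I ROP). Of the 10 genes, 5 had enough counts to be tested, and 2 of these 5 were called, both higher. Their median log2 fold change was 1.33, beside 0.00084 over all genes tested. The other 5 genes (Sparcl1, Thbs1, Thbs2, Serpinf1 and Spock1) had at most 37 UMIs each in Müller glia over all 11 mice.

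Sparc, the gene that was most widely detected in Müller glia, had 4622, 4946 and 4824 CPM in the 3 controls and 4114, 4911 and 4137 CPM in the 3 Phase I ROP mice. The groups overlapped, since 1 Phase I ROP mouse lay within the control range. The others, at 4114 and 4137 CPM, lay below every control. The means were 4797 ± 164 (SD, n = 3) and 4387 ± 453 CPM (SD, n = 3). The log2 fold change was -0.25 (SE 0.21; adjusted p = 0.448), and 2 SE on either side reached from -0.67 to 0.16. With each cell thinned to 500 UMIs, 67.4 to 73.6% of Müller glia per control mouse and 60.5 to 71.8% per Phase I ROP mouse had a Sparc UMI. The unthinned shares were 90.9 to 92.1% and 79.8 to 87.7%, with median UMIs of 1922 to 2565 and 1595 to 1809 per cell. In rods, where Sparc was at 20.8 CPM over all mice, the share per mouse was at most 2.49% thinned and 3.43% unthinned. Median UMIs there were 776 to 1615 per cell.

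**Figure D2:**
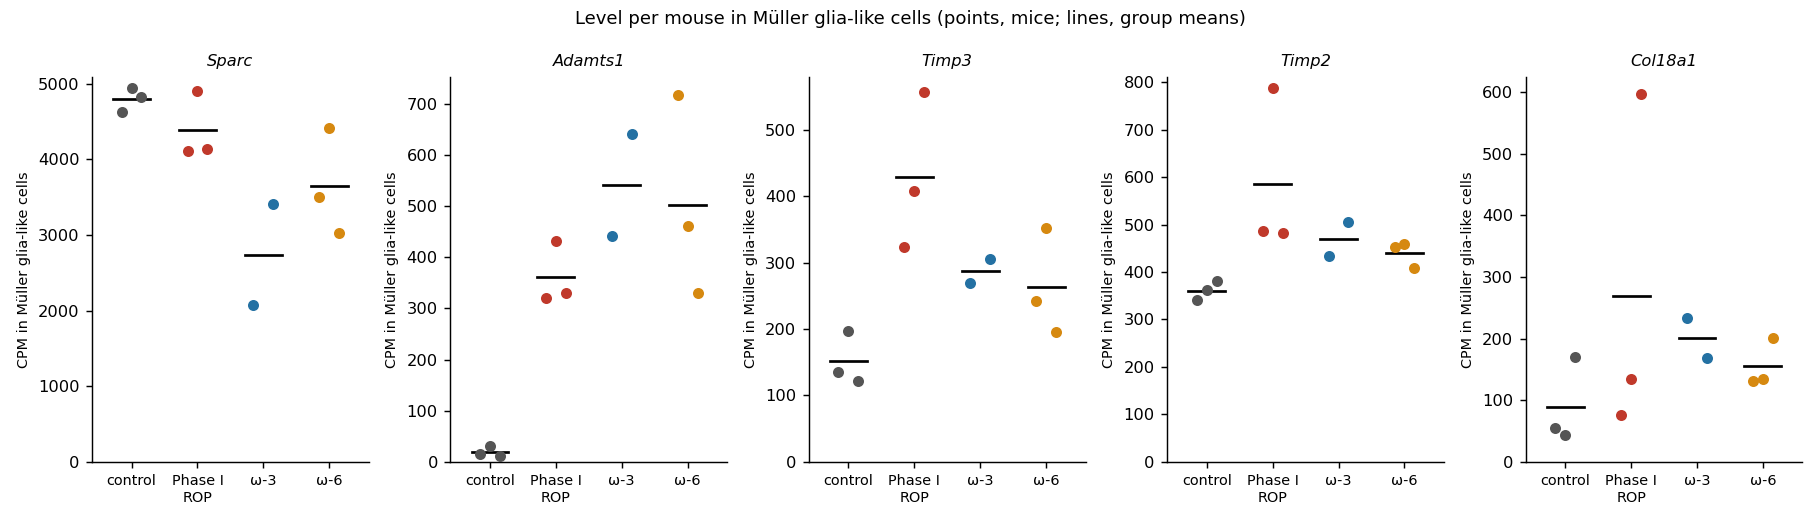
Level of Sparc, Adamts1, Timp3, Timp2 and Col18a1 in Müller glia, in CPM of the UMIs of the class, with 1 point per mouse and a line at each group mean, in the control (3), Phase I ROP (3), ω-3 diet (2) and ω-6 diet (3) groups. Adamts1 lies at 10.3 to 30.6 CPM in controls and at 320 to 717 CPM in the 8 STZ mice, whereas the Sparc points of control and Phase I ROP mice overlap.

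Adamts1 moved most. It had 15.5, 30.6 and 10.3 CPM in the controls, from 13 UMIs in all, and 320, 433 and 330 CPM in the Phase I ROP mice. Every Phase I ROP mouse lay above every control, as did 20.8% of all genes tested. Its log2 fold change was 4.28 (SE 0.34; adjusted p = 1.88e-06), a 19.4-fold difference. An Adamts1 UMI was seen in 2.10 to 6.82% of Müller glia per control mouse and in 27.7 to 37.8% per Phase I ROP mouse. After thinning to 500 UMIs it was in 0 of 254 cells pooled over the controls, which allows a share of up to 1.18% of cells at that depth, and in 14.1 to 15.1% per Phase I ROP mouse. In rods of these 6 mice the share was at most 0.377% thinned and 0.341% unthinned. The STZ mice on the diets were as high, with 442 and 642 CPM on ω-3 and 717, 461 and 330 CPM on ω-6. In Müller glia the immediate early and dissociation list summed to 809 to 1936 CPM in controls and to 7245 to 11877 CPM in Phase I ROP, and 19 of its 22 tested genes rose while none fell (median log2 fold change 3.32). The endothelial marker list, which also summed higher (1350 to 1532 against 2127 to 3009 CPM), held Kdr at 1138 to 1307 CPM in controls and 1912 to 2721 CPM in Phase I ROP, while Cdh5, Tek and Emcn had 0 UMIs in every Müller glia sum and Cldn5, Ly6c1 and Esam had 0 UMIs in controls and 1, 1 and 3 UMIs over the STZ mice. The other 3 of its 10 markers were present and overlapped, with Pecam1 at 27.1 to 54.3 CPM in controls and 16.7 to 44.7 CPM in the STZ mice, Flt1 at 116 to 214 and 92.7 to 242 CPM, and Egfl7 at 3.88 to 24.5 and 3.14 to 22.9 CPM. The part of the immediate early and dissociation response and of the endothelial markers in the Adamts1 change was not tested.

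Timp3 had 136, 196 and 122 CPM in the controls and 323, 407 and 557 CPM in the Phase I ROP mice, with no overlap. Its log2 fold change was 1.41 (SE 0.25; adjusted p = 0.0027), a 2.67-fold difference. Retinal pigment epithelium holds more Timp3 per UMI than Müller glia, and its 9 markers summed to 171 to 221 CPM in control Müller glia and to 126 to 173 CPM in Phase I ROP. The ranges overlapped, and the part of those cells in the Timp3 change was not tested. In thinned Müller glia 2.78 to 5.76% of control cells and 11.96 to 16.0% of Phase I ROP cells had a Timp3 UMI.

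Timp2 had 341, 362 and 380 CPM in controls and 486, 788 and 483 CPM in Phase I ROP. The mice did not overlap, but the difference did not pass the test (log2 fold change 0.56; SE 0.20; adjusted p = 0.0864). Without TMM scaling it passed, at a log2 fold change of 0.73 and an adjusted p of 0.0351. Col18a1 had 54.3, 42.9 and 171 CPM in controls and 75.3, 134 and 597 CPM in Phase I ROP, and the groups overlapped (log2 fold change 1.33; SE 0.62; adjusted p = 0.186). Without the highest Phase I ROP mouse, replicate 3, the Col18a1 log2 fold change was -0.03. It was called in 3 of 11 other alternatives, with a replicate block (1.30; adjusted p = 0.0094), with no filter on low counts (1.29; adjusted p = 0.0010) and when the 5% of cells scored highest by Scrublet were dropped (2.44; adjusted p = 0.0203). Thbs1 had 0 UMIs in control Müller glia, which allows up to 3.71 CPM, and 14 UMIs in Phase I ROP Müller glia (7, 1 and 6 per mouse). With 3 counts in place of the 0 and the 14 UMIs taken as counted, this is 4.91-fold higher over the groups' sums. Thbs1 was too sparse to test there. Serpinf1 had 9, 1 and 8 UMIs in control Müller glia and 1, 0 and 3 UMIs in Phase I ROP Müller glia.

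The start sites of both called genes are shown because their transcripts moved in Müller glia. Adamts1 (ENSMUSG00000022893.14) lies on the reverse strand of chromosome 16 at chr16:85793827-85803113, and Timp3 (ENSMUSG00000020044.13) on the forward strand of chromosome 10 at chr10:86300372-86349506 (GRCm38, GENCODE M21). The bases before the RefSeq gene start that lie outside the annotated gene are given 5′ to 3′ along the gene's strand (GRCm38.p6), at chr16:85803114-85803363 for Adamts1 and chr10:86300162-86300371 for Timp3. Capitals mark the letters TATAAA on the gene's strand and GGGCGG on either strand, 2 promoter motifs known as the TATA box and the GC box.
Adamts1: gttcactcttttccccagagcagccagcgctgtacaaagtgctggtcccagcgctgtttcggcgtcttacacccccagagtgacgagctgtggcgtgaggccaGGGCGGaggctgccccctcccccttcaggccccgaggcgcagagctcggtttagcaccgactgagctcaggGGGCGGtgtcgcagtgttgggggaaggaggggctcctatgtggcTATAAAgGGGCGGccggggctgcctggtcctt
Timp3: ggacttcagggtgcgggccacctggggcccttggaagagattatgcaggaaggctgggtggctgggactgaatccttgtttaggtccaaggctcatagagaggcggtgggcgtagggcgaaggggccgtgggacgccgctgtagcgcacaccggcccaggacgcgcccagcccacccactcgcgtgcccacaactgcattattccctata
The Adamts1 window held 1 TATA box, 32 to 27 bases before the gene start, just before the last of its 3 GC boxes. Of 32851 RefSeq promoters of 300 bases, 8.32% held TATAAA on the gene's strand and 35.7% held GGGCGG on either strand. The Timp3 window held 2 GC boxes, at 15 to 10 bases before and 14 to 19 bases after the RefSeq gene start, both inside the annotated gene and outside the printed bases, which held neither motif. Among the 8 members with a RefSeq promoter, none held the AP-1 letters TGACTCA or TGAGTCA (5.20% of all promoters did), the CRE letters TGACGTCA (1.79%) or a CArG box (1.63%) within 300 bases, searched on both strands. These are matches of letters and say nothing of the factors that bind there.

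**Figure D3:**
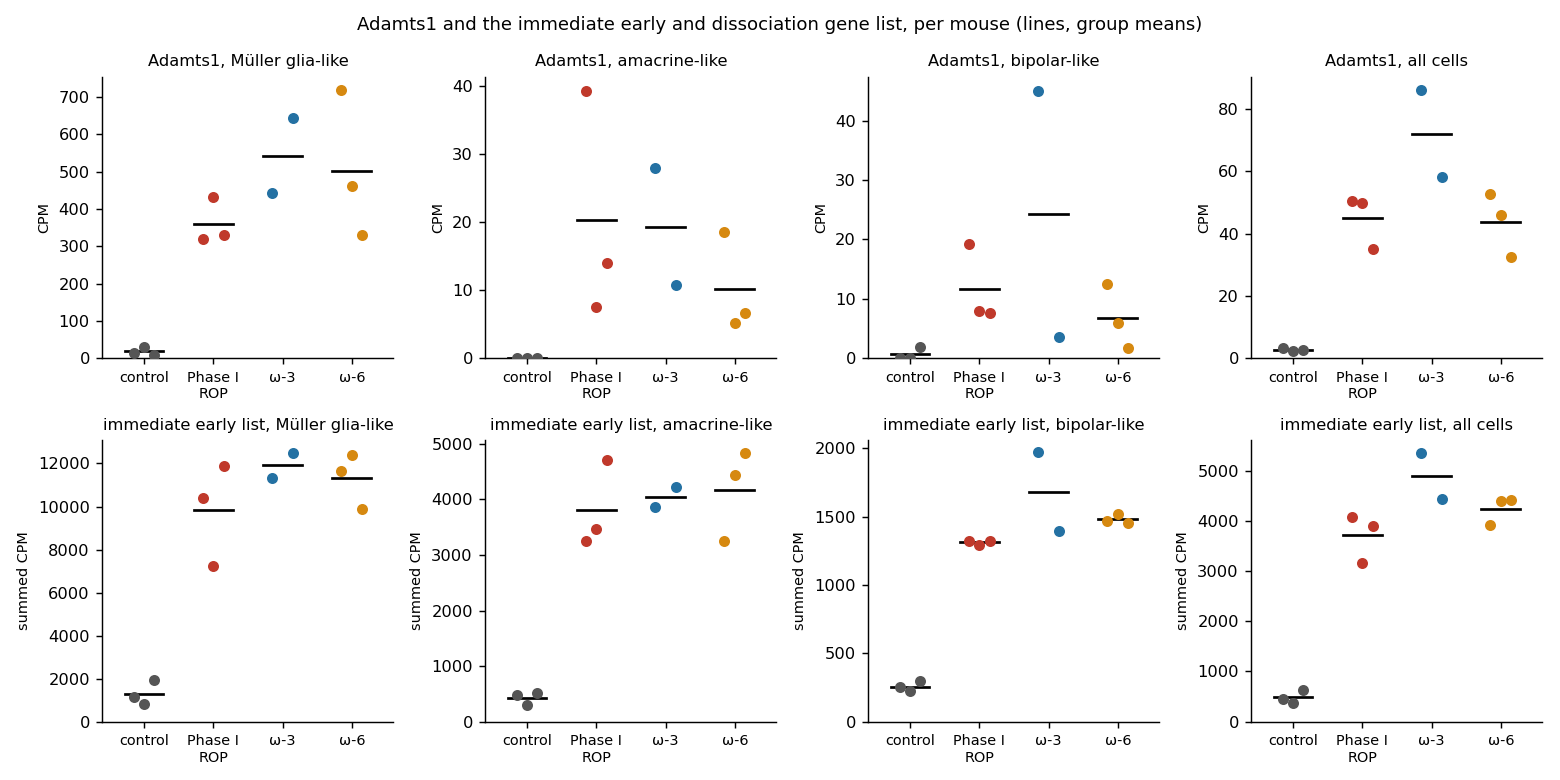
Adamts1 (CPM) and the summed immediate early and dissociation list (CPM) per mouse in Müller glia, amacrine cells, bipolar cells and all cells, by group (lines, group means). In Müller glia and in all cells both quantities are low in the 3 controls and high in the 8 STZ mice, for instance 809 to 1936 against 7245 to 12485 CPM for the list in Müller glia.

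Genes that work with the 10 were counted in the same test. Of the wider SPARC family 2 of 8 genes were tested and none was called. Of 20 thrombospondins and proteins with thrombospondin repeats 3 were tested and only Adamts1 was called, and of 14 TIMPs and their proteases 5 were tested and only Timp3 was called. None of 4 tested basement membrane genes and none of 3 other tested inhibitors of vessel growth was called. Among receptors of the members, 1 of 10 tested genes was called. It was Kdr, which encodes VEGFR2, with a log2 fold change of 0.77 (SE 0.18; adjusted p = 0.0136), from 1138 to 1307 CPM in controls to 1912 to 2721 CPM in Phase I ROP. Among growth factors that promote vessel growth, 3 of 6 tested genes were called. Cyr61, a matricellular factor that is also on the immediate early list, rose by 2.90 on the log2 scale (SE 0.49; adjusted p = 0.0020). Ptn, which encodes the heparin-binding factor pleiotrophin, fell by 0.55 (SE 0.15; adjusted p = 0.0345), and its relative Mdk fell by 0.82 (SE 0.24; adjusted p = 0.0424). Of 15 Müller identity genes, Sox9 (1.52) and Cp (0.75) rose and Apoe fell by 1.06, and the summed Müller markers overlapped between controls (21515 to 25028 CPM) and Phase I ROP (21803 to 26315 CPM). Rod markers in Müller glia were 282 to 613 CPM in controls and 923 to 2579 CPM in Phase I ROP, and their part in these counts was not tested.

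Among the members tested in amacrine and bipolar cells, Timp2 was the one called. In amacrine cells 9629 genes were tested and 31.8% were called, and of the 10 genes 4 were tested and 1 was called, a share near the background. Timp2 had 62.0, 49.4 and 39.7 CPM in amacrine cells of controls and 170, 168 and 190 CPM in those of Phase I ROP mice. Every Phase I ROP mouse lay above every control, as did 35.7% of the genes tested, and the log2 fold change was 1.48 (SE 0.20; adjusted p = 0.000121). On the diets it was at 138 and 146 CPM with ω-3 and 114, 145 and 124 CPM with ω-6, again above every control. Sparcl1 had 127, 89.8 and 99.3 CPM in control amacrine cells and 128, 156 and 183 CPM in Phase I ROP, and although the CPM did not overlap it did not pass the test (log2 fold change 0.25; SE 0.19). Spock1 overlapped between the groups, with 84.6, 107 and 113 CPM against 91.3, 111 and 128 CPM (log2 fold change -0.19; SE 0.20). Sparc in amacrine cells, at 18.2 to 26.8 CPM in controls and 17.3 to 39.4 CPM in Phase I ROP, did not pass either.

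Sparse members differed in the same cells without a test. Thbs1 had 1 UMI in the amacrine cells of each control and 6, 12 and 17 UMIs in those of the Phase I ROP mice. Adamts1 had 0 amacrine UMIs over the controls and 40 over the Phase I ROP mice. With 3 counts in place of the 0 and the 40 taken as counted, this is 13.8-fold higher. Over all mice Adamts1 had 16.7 UMIs per 1000 Müller marker UMIs in amacrine cells, 32.7 in bipolar cells and 18.7 in Müller glia. The part of RNA from Müller glia in the amacrine Adamts1 level was not tested. Serpinf1 went the other way, with 20 UMIs against 3. In amacrine cells the immediate early and dissociation list was at 308 to 508 CPM in controls and 3242 to 4832 CPM in the STZ mice, and its part in these differences was not tested.

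In bipolar cells 45.3% of 10019 tested genes were called, and of the 10 genes 2 were tested and 1 was called, again near the background. Timp2 had 55.5, 44.5 and 38.6 CPM in controls and 85.1, 97.1 and 97.8 CPM in Phase I ROP, which placed it among the 42.4% of tested genes with every Phase I ROP mouse above the controls. Its log2 fold change was 0.60 (SE 0.22; adjusted p = 0.0398), and the call was lost in 4 of 11 other alternatives (DESeq2, sums thinned to equal depth, a single fit over the 4 groups, and low counts kept) and when any mouse other than control replicate 1 was left out. Pigment epithelium markers in bipolar cells were at 492 to 628 CPM in controls and 117 to 178 CPM in the STZ mice. In rods, 34.3% of genes were called but none of the 10 had the counts to be tested, and none was tested in cones.

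**Figure D4:**
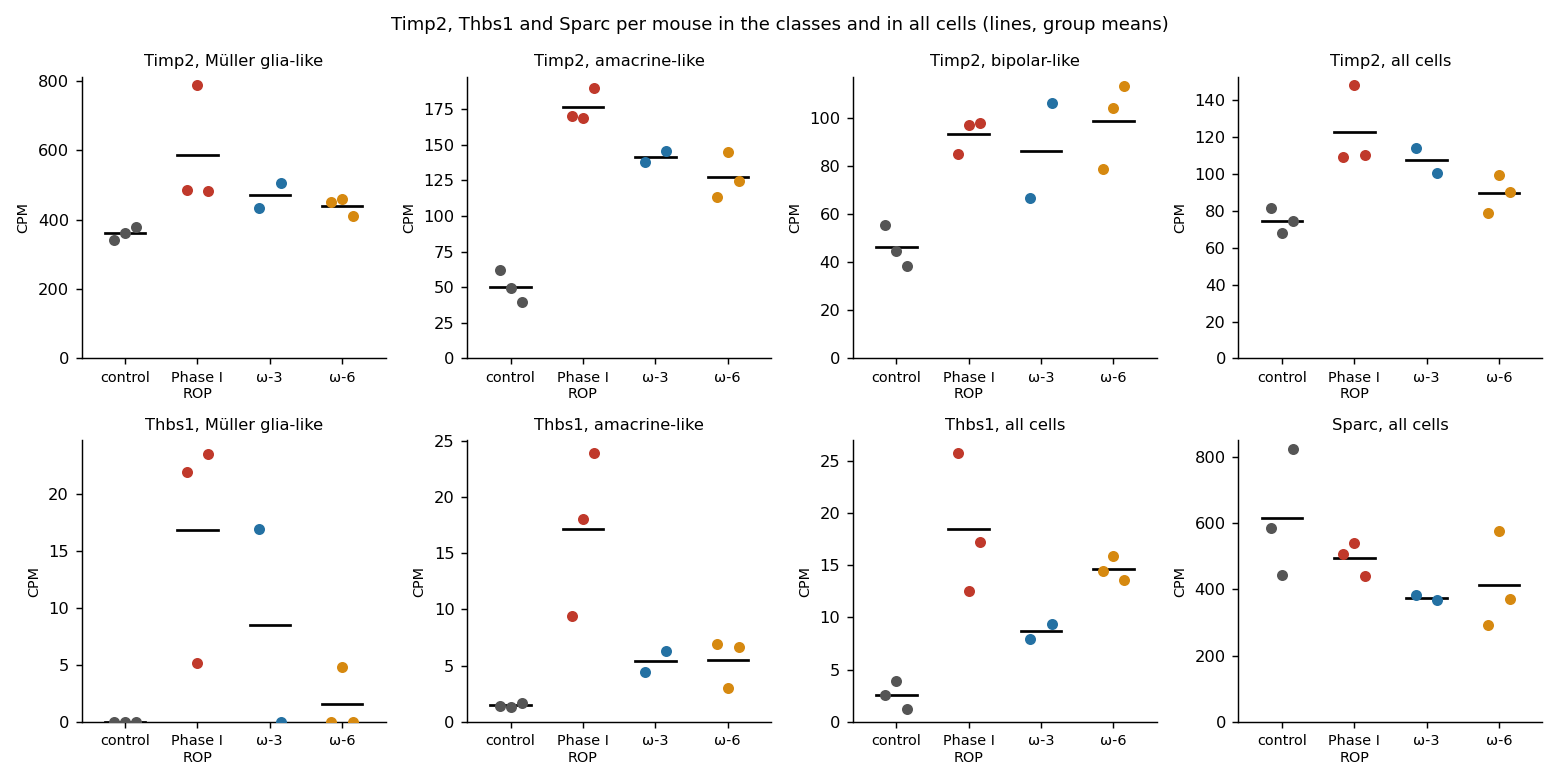
Level per mouse (CPM) of Timp2 in Müller glia, amacrine cells, bipolar cells and all cells, of Thbs1 in Müller glia, amacrine cells and all cells, and of Sparc in all cells, by group (lines, group means). Timp2 in amacrine cells lies at 39.7 to 62.0 CPM in controls and at 114 to 190 CPM in the 8 STZ mice, while Sparc over all cells overlaps between control and Phase I ROP.

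Vessel cells and pigment epithelium were too few to test and are given as pooled levels with exact Poisson intervals, which cover counting error only. Endothelial cells (led also by Rgs5, a pericyte gene) numbered 50 in controls and 25 in Phase I ROP. Their Sparc was 4496 CPM (4237 to 4768) in controls and 6869 CPM (6389 to 7377) in Phase I ROP. Their Sparcl1 was 831 CPM (722 to 952) in controls and 2160 CPM (1894 to 2452) in Phase I ROP. By mouse, endothelial Sparcl1 was at 623, 995 and 859 CPM in controls and at 1686, 1618 and 3580 CPM in Phase I ROP, and the mice on the diets lay between 1863 and 3034 CPM, so no STZ mouse reached down to the controls. The share of all genes without overlap was not computed in this class, and some of these levels rest on as few as 2 cells. Endothelial Adamts1 had 3 UMIs in controls and 37 in Phase I ROP, or 12.04 CPM (2.48 to 35.2) against 336 CPM (236 to 463). In the pigment epithelium, Thbs1 was at 777, 979 and 1528 CPM in controls, from 9 cells, and at 3832, 1658 and 4384 CPM in Phase I ROP, from 12 cells, the first of these values from 1 cell. Pigment epithelium Timp3 was at 389, 734 and 764 CPM in controls and at 2240, 1382 and 3683 CPM in Phase I ROP.

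Summed over all cells of a mouse, where fewer cells of a type and less RNA per cell cannot be told apart, 15964 genes were tested for Phase I ROP vs. control and 48.1% were called (24.7% higher and 23.4% lower). Of the 10 genes 8 were tested and 5 were called, 4 higher and 1 lower. Adamts1 rose by 3.74 on the log2 scale (adjusted p = 3.97e-06), from 2.34 to 3.32 CPM in controls to 35.0 to 50.5 CPM in Phase I ROP. Thbs1 rose by 2.65 (SE 0.43; adjusted p = 0.000485). It had 2.58, 3.90 and 1.19 CPM in the controls and 25.7, 12.5 and 17.2 CPM in the Phase I ROP mice, and was among the 40.2% of tested genes with every Phase I ROP mouse above the controls. Timp3 rose by 1.00 (adjusted p = 0.000579) and Timp2 by 0.44 (adjusted p = 0.0241). The Timp2 call was lost without control replicate 2 (adjusted p = 0.0719) or Phase I ROP replicate 2 (adjusted p = 0.0889).

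Sparc over all cells was the gene called lower, with a log2 fold change of -0.59 (SE 0.20; adjusted p = 0.0289). The mice overlapped nonetheless, at 585, 442 and 823 CPM in controls and 507, 541 and 439 CPM in Phase I ROP. Without TMM scaling the log2 fold change was -0.32 and the adjusted p was 0.177. The call was also lost without control replicate 3 (-0.29; adjusted p = 0.125), control replicate 1 (adjusted p = 0.0572), Phase I ROP replicate 2 (adjusted p = 0.0737) or Phase I ROP replicate 3 (adjusted p = 0.111). Müller glia, the main source of Sparc, made up 5.59 to 9.58% of the cells of controls and 5.36 to 7.60% of those of Phase I ROP mice.

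**Figure D5:**
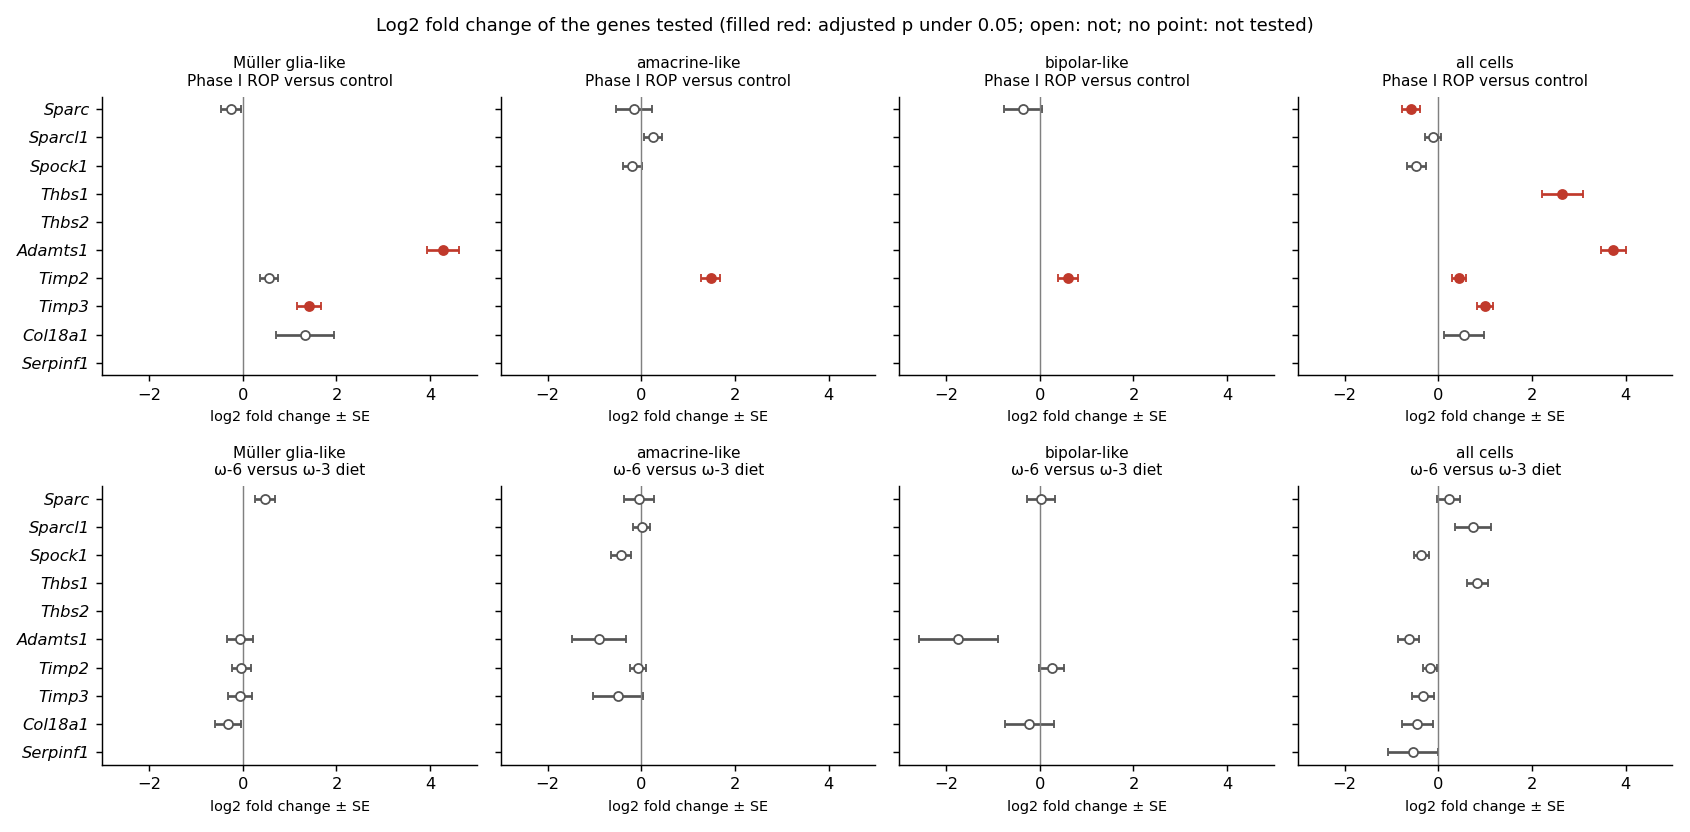
Fitted log2 fold changes (points) with SE (bars) of the tested members in Müller glia, amacrine cells, bipolar cells and all cells, for Phase I ROP vs. control and for ω-6 vs. ω-3 diet. Adamts1 (4.28) and Timp3 (1.41) stand out in Müller glia for Phase I ROP, and the Müller glia points of the diet comparison lie between -0.31 and 0.47.

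The diets were compared to ask whether the kind of LCPUFA altered these genes in STZ mice, with Sparc of Müller glia as the gene of interest. No gene was called in Müller glia for ω-6 vs. ω-3, 0 of 7945 tested (0% called), with 283 at an unadjusted p under 0.05 in edgeR and 2 called by DESeq2, neither of them a member. Of the 10 genes 5 were tested and none was called. Sparc had 2073 and 3409 CPM on the ω-3 diet and 3499, 4417 and 3027 CPM on the ω-6 diet. The groups overlapped, as 1 of the 3 ω-6 mice lay below the higher ω-3 mouse. The means were 2741 ± 945 CPM (SD, n = 2) and 3648 ± 706 CPM (SD, n = 3). The log2 fold change was 0.47 (SE 0.20) with an unadjusted p of 0.0345 and an adjusted p of 0.994 in edgeR, and 2 SE on either side reached from 0.06 to 0.88. Without ω-3 replicate 1 the log2 fold change was 0.13, and without ω-3 replicate 2 it was 0.87, so the size of the Sparc difference turned on which of the 2 ω-3 mice was kept. The share of thinned Müller glia with a Sparc UMI was 42.7 to 60.6% with ω-3 and 55.3 to 69.7% with ω-6, again overlapping.

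The 4 other tested members were not called. In Müller glia the log2 fold changes for ω-6 vs. ω-3 were -0.04 for Timp2 (2 SE on either side, -0.44 to 0.37), -0.06 for Timp3 (-0.58 to 0.46), -0.06 for Adamts1 (-0.60 to 0.48) and -0.31 for Col18a1 (-0.88 to 0.25). Sparcl1 had 5 and 12 UMIs in Müller glia with ω-3 and 1, 1 and 0 UMIs with ω-6, and Serpinf1 had 11 and 3 UMIs with ω-3 and 0, 0 and 1 UMIs with ω-6. Both genes were too sparse to test. The labels do not make the pups on the diets littermates of the other 6 mice, so litter and feed cannot be told apart where a diet group is set beside Phase I ROP. Sparc in Müller glia was lower in both diet groups than in any control, at 2073 to 4417 CPM against 4622 to 4946 CPM, and the summed Müller markers were lower too, at 15276 to 20928 CPM against 21515 to 25028 CPM.

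Outside Müller glia no member was called between the diets either, and no gene was called over all cells, 0 of 18821 (1328 at an unadjusted p under 0.05 in edgeR and 20 called by DESeq2, none a member). Thbs1 over all cells had 7.93 and 9.36 CPM with ω-3 and 14.4, 15.9 and 13.5 CPM with ω-6, and every ω-6 mouse lay above both ω-3 mice, as for 7.39% of all tested genes. The log2 fold change was 0.83 (SE 0.22) with an adjusted p of 0.682 in edgeR. The same libraries held 6 and 8 pigment epithelium cells with ω-3 and 10, 18 and 12 with ω-6, and the part of those cells in the Thbs1 level was not tested. Adamts1 over all cells was at 86.0 and 58.2 CPM with ω-3 and at 52.9, 45.9 and 32.6 CPM with ω-6 (log2 fold change -0.63; SE 0.22), which was not called. Sparc in rods, where its level was low, was at 9.81 and 12.8 CPM with ω-3 and at 15.7, 50.02 and 33.5 CPM with ω-6. Its log2 fold change was 1.63 (SE 0.45; adjusted p = 0.368 in edgeR), in a class where 0.0175% of 11410 tested genes were called. In amacrine cells Spock1 had a log2 fold change of -0.43 (2 SE on either side, -0.87 to 0.0001) and Sparcl1 one of 0.01 (-0.37 to 0.38). Of the companion lists, none had a gene called in Müller glia between the diets.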

How the data were processed

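Retinal cells of 11 mice were profiled with inDrop v3. The deposited values are raw UMI counts of each cell, which the authors made with bcbio-nextgen and umis, leaving out barcodes of few reads and assigning reads with Rapmap to transcripts of GRCm38. Per the labels the builds were mm10 and GRCm38.p6. No column lay outside the 11 samples.

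The members and gene lists were chosen with earlier results of these data known. Cells with more than 300 genes were clustered in Seurat 5.3.0 (R 4.3.3; counts scaled to 10000 per cell, 2000 variable genes, 75 principal components, resolution 0.2). A cluster took the class with most markers among its 10 leading genes, given at least 3 detected markers. A marker counted as detected in at least 10% of cells and at 1.5 times the share elsewhere. Scrublet (scanpy 1.11.5) marked 72 cells (0.359%) as doublets, too few to rely on, so doublets were kept and an alternative left out the 5% of cells with the highest scores.

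Counts were summed per mouse and class, where every mouse compared had 10 or more cells, and tested with edgeR 4.0.16 (quasi-likelihood F-test, two-sided; TMM scaling; filterByExpr), with Benjamini-Hochberg adjustment over all genes of the class and a call at an adjusted p under 0.05. The study tested single cells, and sums per mouse replaced these because cells are not replicates. CPM are plain shares of a class's UMIs. The standard error was taken as the log2 fold change over the root of F. Limits for a count of 0 rest on 3 counts, and Poisson intervals are at the 95% level. The text names all 10 members, the companion genes called in Müller glia, and the 5 genes most like Sparc. The test scripts were checked on simulated counts. Same-numbered mice were not paired: their deviations in Müller glia correlated at 0.020, 0.033 and 0.154 in the first comparison. The alternatives were DESeq2 1.42.0, other scaling, filters, clusterings, thinning, all groups in 1 fit, a replicate block and leaving out each mouse.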

Additional observations from a re-analysis of the deposited data

How the results depend on the processing

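In Müller glia the calls of Adamts1 and Timp3 for Phase I ROP vs. control were made under every alternative and with any mouse left out (log2 fold changes 3.81 to 4.66 and 1.19 to 1.61), as were those of Timp2 in amacrine cells (1.34 to 1.81) and of Thbs1 over all cells (2.22 to 3.07). The number of members called moved as follows. With no filter on low counts it was 4 in Müller glia, 4 in amacrine cells and 1 in rods for Phase I ROP vs. control, and 1 in rods between the diets. With all 4 groups in 1 fit it was 3 in amacrine cells and 1 in rods. In bipolar cells it was 0 in DESeq2 and 0 with sums thinned to equal depth. Without scaling beyond library totals, chosen after seeing the data, it was 2 in amacrine cells. Leaving out single mice gave 0 to 1 in rods, 0 to 1 in bipolar cells, 1 to 2 in amacrine cells and 4 to 6 over all cells. Of the signs in Müller glia, Col18a1 for Phase I ROP vs. control ran from -0.032 (without Phase I ROP replicate 3) to 2.28 when single mice were left out. For ω-6 vs. ω-3 Timp2 ran from -0.17 to 0.076, Timp3 from -0.34 to 0.10 and Adamts1 from -0.38 to 0.23, and Timp2 was at 0.0040 in clusters without the members and 0.023 with thinned sums. With a replicate block, although the numbers were not shown to pair the mice (correlations of 0.083 and 0.273 in the diet groups), these were 0.00026 for Timp2, 0.079 for Timp3 and 0.16 for Adamts1, 1 member was called in rods between the diets, and Sparc in Müller glia was at 0.61 with an adjusted p of 0.115. With the block Col18a1 for Phase I ROP vs. control was called in Müller glia (1.30; adjusted p = 0.0094). Over all genes, calls in Müller glia for Phase I ROP vs. control fell from 526 to 309 in DESeq2 and lay between 265 and 304 without control replicate 1, Phase I ROP replicate 2 or Phase I ROP replicate 3. Without scaling, the share of calls that were higher went from 53.6 to 72.9% in Müller glia, from 44.0 to 76.3% in amacrine cells, from 47.1 to 74.7% in bipolar cells and from 51.4 to 70.6% over all cells, and over all genes tested the median was 0.164, 0.346, 0.449 and 0.262 on the log2 scale. Of the recomputed counts of called members, 177 stayed within 1.5 times and 21 did not, where 0 against 0 counted as staying. These counts include cones, where no member was tested, and the diet comparisons, where the main count was 0 in every class. The 177 is therefore no measure of how stable the calls were. The cause of each move was not tested. Depth limits Thbs1, Thbs2, Serpinf1, Sparcl1 and Spock1 in Müller glia.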
